A study of Mus musculus with 2 samples.

Results

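The oxytocin receptor gene Oxtr and 8 genes of the Gq calcium pathway below it were followed through single nuclei of the lactating mouse mammary gland. The 9 genes are Oxtr, the G protein alpha subunits Gnaq and Gna11, the phospholipases Plcb1 and Plcb4, the inositol trisphosphate receptors Itpr1, Itpr2 and Itpr3, and the protein kinase C gene Prkca. They were taken by symbol from the 33943 genes of the deposited list, and each symbol matched 1 identifier. The nuclei came from the inguinal mammary fat pad of 8 dams on day 11 after birth, and the lymph nodes had been removed. A group of 4 dams is labelled as an adipocyte-specific Oxtr knockout (KO) and 4 dams as Oxtr flox, so the labels give both groups a floxed Oxtr allele or its recombined form. The dams were bred from 8 weeks of age on standard chow and their litters were standardized to 4 or 5 pups. Neither the promoter driving the recombinase nor the stretch of Oxtr it removes is given in the sources used here.

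Oxytocin is the hormone of milk let-down. In the textbook account its receptor sits on myoepithelial cells, the contractile cells that wrap the alveoli. The bound receptor activates Gq proteins, which switch on phospholipase C beta. That enzyme makes inositol trisphosphate, which opens calcium channels of the endoplasmic reticulum, and diacylglycerol, which with calcium activates protein kinase C. The released calcium drives contraction through calmodulin and myosin light chain kinase. The transcripts counted here say nothing of calcium or contraction itself.

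All nuclei were sequenced as 1 pooled 10x Genomics library, and a hashtag library marked the animal of each nucleus. Hashtags named WT were read as the Oxtr flox dams, since the labels name no further genotype, and every comparison of genotypes rests on this reading. The hashtags placed 13005 nuclei with 1 named animal, between 1311 and 2011 per animal, with median depths of 4239 to 5621 unique molecular identifiers (UMIs) per nucleus. Milk protein transcripts were found in every type. They took 8.89% of the UMIs of adipocyte nuclei and 19.7% of those of pericyte nuclei, the lowest and highest of the 13 types described. The part of free RNA in these shares was not tested. The labels give 7 litters with 5 pups and 1 with 3, the latter below the standard of 4 or 5. These litters are not tied to animals, so the part of litter size could not be examined. P-values below measure the spread between dams, whose nuclei shared 1 library. Cell types were called from marker genes, none of which is one of the 9 genes, and the 9 genes were also kept out of the clustering. Nuclei called myoepithelial carried 8 of their 8 markers and those called adipocyte 9 of 9. Secretory luminal nuclei passed 3 of 10 against all other nuclei, Btn1a1, Xdh and Elf5, and none of the 7 milk protein genes on the list did. Of their 3 clusters, those led by Ak9 and Top2a fell short of the naming rule, with 1 and 2 of 10 markers over the median of the other clusters, so the name rests on fewer markers there. A cluster led by Klra2 had macrophage markers but none among its leading genes, and is called by that gene.

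Oxtr, the gene deleted by design in adipocytes of the KO dams, was sparse in adipocyte nuclei of both genotypes. The adipocyte nuclei of the 4 KO dams held 4, 5, 5 and 4 Oxtr UMIs, and those of the 4 flox dams 1 each. Levels are given as CPM, in which the UMIs of each cell type and animal are scaled to the same total. The KO adipocytes had 14.1, 13.3, 22.7 and 15.9 CPM, against 4.43, 5.81, 4.61 and 6.67 CPM in flox adipocytes. The label of a deletion thus had the higher counts, in 4 of 4 dams without overlap, but the gene was too sparse to pass the filter for testing. Without overlap and with KO higher stood 2.72% of the 3892 genes that could be tested in adipocytes. Summed over dams, KO adipocytes held 18 Oxtr UMIs in 210 nuclei, or 15.9 CPM (95% Poisson interval 9.41 to 25.1), and flox adipocytes 4 in 158 nuclei, or 5.23 CPM (1.43 to 13.4). The same order stood in the pooled nuclei of all types other than myoepithelial, secretory luminal and adipocyte, with 13.5 CPM (10.5 to 17.1) in KO dams and 7.91 CPM (5.41 to 11.2) in flox dams. These intervals cover counting error only. Of the 69 Oxtr UMIs of KO dams in that pool, 11 came from Klra2-led nuclei of KO dam 2 and 11 from Lama2 fibroblasts of KO dam 4. By animal means, KO was higher in the Klra2-led cluster, in both fibroblast types and in macrophages. It was lower in luminal progenitors (8.31 against 18.9 CPM) and in endothelial nuclei (6.93 against 22.25 CPM). Summed over their 8 markers, myoepithelial transcripts had 45.8 to 305.2 CPM in KO and 50.7 to 153.5 CPM in flox adipocytes, with 0 markers at 0, and their part in the result was not tested. Since the deleted stretch is not given, a 3′ tag may lie outside it, and these counts do not check the deletion.

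Myoepithelial nuclei held most of the receptor transcripts. Over all clustered nuclei they held 1444 Oxtr UMIs, which is 234.5 CPM (95% Poisson interval 222.6 to 247), and 47.9% of their 1878 nuclei had at least 1. Among nuclei with a named animal they made up 7.03% of nuclei and gave 815 of 1177 Oxtr UMIs, or 69.2%. Secretory luminal nuclei, the milk-making cells, made up 76.5% of nuclei and gave 236, or 20.1%. Across the 8 animals the myoepithelial level averaged 210.7 ± 26.4 CPM (SD, n = 8), with a lowest value of 177.8 and a highest of 245.

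No other type came near that level. In the pooled nuclei macrophages followed with 15.5 CPM (9.70 to 23.4), the Klra2-led cluster with 14.96 CPM (9.86 to 21.8), and adipocytes and plasma cells with 12.7 CPM each. T and NK cells had 12.2 CPM, endothelial cells 11.5, luminal progenitors 11.1 and pericytes 9.21. The lowest were Lama2 fibroblasts with 7.82 CPM, Pi16 fibroblasts with 5.02, secretory luminal nuclei with 4.48 and hormone-sensing luminal nuclei with 4.46 from 1 UMI. The step between myoepithelial nuclei and endothelial nuclei, the next type by animal mean, was 3.54 ± 0.95 on the log2(CPM + 10) scale, which understates changes of low genes. Endothelial nuclei ranked next through flox dam 1 alone (74.2 CPM from 5 UMIs in 11 nuclei). Without that dam their mean was 6.08 CPM, below macrophages at 14.4, and the step was 3.81. The step went the same way in 8 of 8 animals, with an exact sign-flip permutation p of 0.00781, the smallest that 8 animals allow, and an adjusted p of 0.0511 over the 72 neighbouring pairs of all 9 genes. None of the 72 pairs passed an adjusted threshold of 0.05 by this test, 17 had an unadjusted p under it, and 11 stood at the smallest p with 8 of 8 animals. Below the myoepithelial level, no neighbouring pair of types differed beyond its spread for Oxtr.

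**Figure D1:**
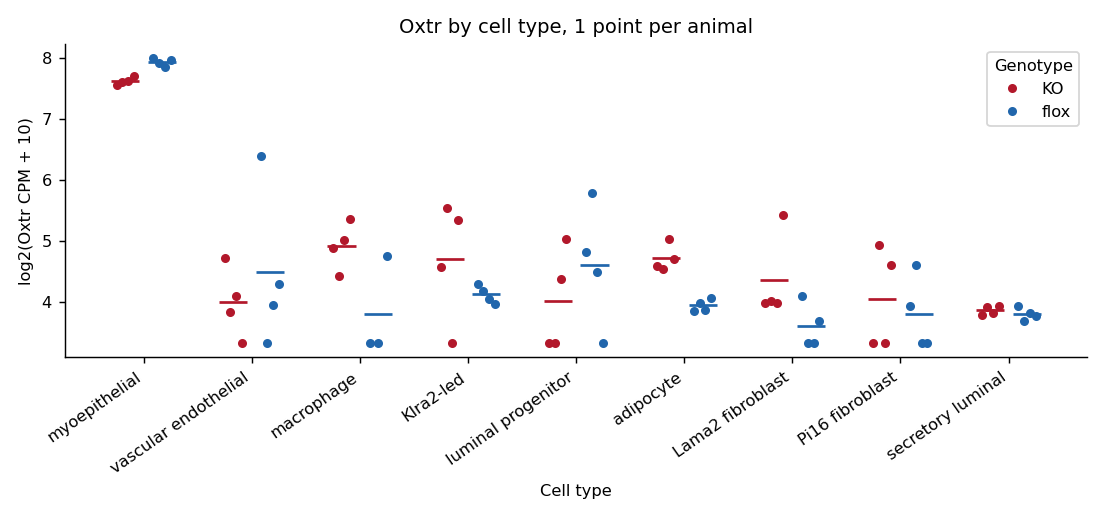
Oxtr level as log2(CPM + 10) in 9 cell types, 1 point per animal, KO animals (red) left of flox animals (blue), with lines at the group means. Myoepithelial nuclei lie between 177.8 and 245 CPM in all 8 animals, and the highest value in any other type, 74.2 CPM, is endothelial nuclei of 1 flox animal with 5 UMIs.

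Outside the myoepithelial type, 103 of 399 nuclei with an Oxtr UMI (25.8%, exact 95% interval 21.6 to 30.4) also had a myoepithelial marker UMI, against 14.8% (14.2 to 15.3) of 15639 nuclei without one. The share varied between types. In the Klra2-led cluster 12 of 17 nuclei with an Oxtr UMI (70.6%, exact 95% interval 44.0 to 89.7) also had a myoepithelial marker UMI, against 17.2% (13.3 to 21.6) of those without one. Their median depths were 6605 and 3089 UMIs. In Lama2 fibroblasts it was 10 of 24 (41.7%, 22.1 to 63.4) against 15.1% (13.2 to 17.2), at median depths of 2974 and 2757. The difference was smaller in adipocytes, with 7 of 21 (33.3%, 14.6 to 57.0) against 22.2% (18.4 to 26.4), at 5567 and 4070. Secretory luminal nuclei had 16.9% (12.6 to 21.97) against 13.8% (13.1 to 14.4), at 5269 and 4967. The part of free RNA or of mixed nuclei in these counts was not tested.

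The letters upstream of the receptor gene are shown because Oxtr is the member whose transcripts sit mainly in 1 cell type. The RefSeq table, of the build GRCm38.p6, held promoters for 8 of the 9 genes. The UMI counts were made on GRCm39, and no coordinate is carried between the builds. The 250 bases before the annotated start of Oxtr lie at chr6:112489826-112490075 on the minus strand. Capitals mark the matches to the letters searched.

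Oxtr upstream region, 5′ to 3′: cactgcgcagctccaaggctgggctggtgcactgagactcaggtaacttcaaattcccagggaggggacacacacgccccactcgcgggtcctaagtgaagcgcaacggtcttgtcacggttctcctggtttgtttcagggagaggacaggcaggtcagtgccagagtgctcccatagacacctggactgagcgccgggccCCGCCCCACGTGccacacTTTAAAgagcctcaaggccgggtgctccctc

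A run of TTTAAA began 31 bases before the start (position -31, counted from -1 at the base before it), and such a run was present in 12.1% of the 32851 promoters of the table over the same length and both strands. A GC box, searched as CCGCCC, began at -49 and stood in 32.7% of promoters. An E-box, searched as CACGTG, followed it directly at -43 without overlap and stood in 6.02%. The AP-1 letters TGANTCA had no match in this window and stood in 6.75% of promoters. The GC content of the Oxtr window was 61.6%, against 71.2% to 85.2% in the first listed promoter of the 7 other matched genes and a median of 52.4% over the table. These matches are letters and not binding sites, and the motifs were chosen after the sequence had been read.

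The G protein genes were spread over every type. Gnaq, which encodes the alpha subunit that gives Gq its name, averaged 539 ± 55.1 CPM in myoepithelial nuclei (SD, n = 8). Its highest animal mean was 881.9 ± 172.9 CPM in the Klra2-led cluster and its lowest 362.1 ± 52.9 CPM in adipocytes. None of its 8 neighbouring pairs differed beyond the spread (smallest exact permutation p = 0.109). Types further apart in the order were not tested. The animal values of the Klra2-led cluster (669.7 to 1113 CPM) and of adipocytes (308.3 to 447.3 CPM) did not overlap. Gna11, the second Gq-class subunit, lay between 18.9 and 34.2 CPM in the 9 types compared across animals. None of its neighbouring pairs differed beyond the spread either.

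The phospholipase genes split by cell type. Plcb1 was high in adipocytes, with 1886 ± 306.8 CPM, and in myoepithelial nuclei, with 1491 ± 225.8 CPM (SD, n = 8 each). Endothelial nuclei followed with 557.9 ± 254.7 CPM, and the other 6 types had means of 112.8 to 209 CPM. The step between myoepithelial and endothelial nuclei was 1.49 ± 0.57 on the log2 scale in 8 of 8 animals (exact permutation p = 0.00781, adjusted p = 0.0511). Adipocytes lay above myoepithelial nuclei in 7 of 8 animals, by 0.33 ± 0.30 (exact permutation p = 0.0312, adjusted p = 0.15). Pooled over all clustered nuclei, also those without a named animal, the levels lay closer. They were 1854 CPM (1797 to 1913) in adipocytes and 1801 CPM (1768 to 1835) in myoepithelial nuclei. Hormone-sensing luminal nuclei, with too few per animal for a comparison, had the highest pooled Plcb1 level, 3150 CPM (2922 to 3391) in 61 nuclei. High Plcb1 was thus not a mark of the receptor-bearing type alone.

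Plcb4 had a different order. Endothelial nuclei were highest, with 504.4 ± 147.4 CPM, followed by Pi16 fibroblasts with 244 ± 76.3 and adipocytes with 192.6 ± 56.9. Myoepithelial nuclei had 62.7 ± 18.9 CPM, above only luminal progenitors with 18.95 ± 17.5 (SD, n = 8 each). Of the UMIs of both phospholipase genes, Plcb1 gave 95.9 ± 1.18% in myoepithelial nuclei, 90.7 ± 2.34% in adipocytes and 51.5 ± 9.08% in endothelial nuclei. A 3′ count is taken as it stands in these shares, with no correction for gene length, so they compare cell types and not the isoforms with each other.

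The receptors on the calcium store also changed make-up between types. Itpr1 averaged 196.7 ± 43.0 CPM in myoepithelial nuclei, 200.8 ± 49.3 in adipocytes and 333.9 ± 88.2 in endothelial nuclei. The endothelial step over adipocytes was 0.69 ± 0.43 on the log2 scale in 8 of 8 animals (exact permutation p = 0.00781, adjusted p = 0.0511). Itpr2 separated myoepithelial nuclei, with 109.1 ± 23.0 CPM, from adipocytes, with 35.9 ± 12.8 CPM, by 1.41 ± 0.33 in 8 of 8 animals at the same p. Luminal progenitors had the highest Itpr2 mean, 380.6 ± 131.4 CPM, and pooled hormone-sensing nuclei reached 1737 CPM (1569 to 1919). Itpr3 was low throughout, with 30.3 ± 9.30 CPM in myoepithelial nuclei and 7.38 ± 4.30 in adipocytes.

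As shares of the UMIs of all 3 Itpr genes, Itpr1 gave 58.1 ± 6.29% in myoepithelial nuclei and 81.9 ± 6.03% in adipocytes (SD, n = 8 each). Itpr2 gave 32.5 ± 3.41% in myoepithelial nuclei, 14.9 ± 5.43% in adipocytes and 69.5 ± 8.98% in luminal progenitors. In the pooled small types, Itpr2 gave 93.3% in hormone-sensing nuclei (exact 95% interval 90.5 to 95.5) and Itpr1 84.2% in pericytes (78.2 to 89.1). Pericytes and adipocytes thus had the highest Itpr1 shares, and hormone-sensing nuclei and luminal progenitors the highest Itpr2 shares.

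Prkca, a calcium-dependent protein kinase C gene, was highest in Pi16 fibroblasts with 626.4 ± 195.1 CPM and next in myoepithelial nuclei with 434 ± 71.3 CPM. Lama2 fibroblasts had 225.1 ± 53.6 CPM, adipocytes 113 ± 45.4 CPM and secretory luminal nuclei 14.7 ± 2.48 CPM (SD, n = 8 each). Myoepithelial nuclei lay above Lama2 fibroblasts by 0.94 ± 0.40 on the log2 scale in 8 of 8 animals (exact permutation p = 0.00781, adjusted p = 0.0511). Pi16 fibroblasts lay above myoepithelial nuclei in 7 of 8 animals, by 0.48 ± 0.40 (exact permutation p = 0.0156, adjusted p = 0.0804).

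**Figure D2:**
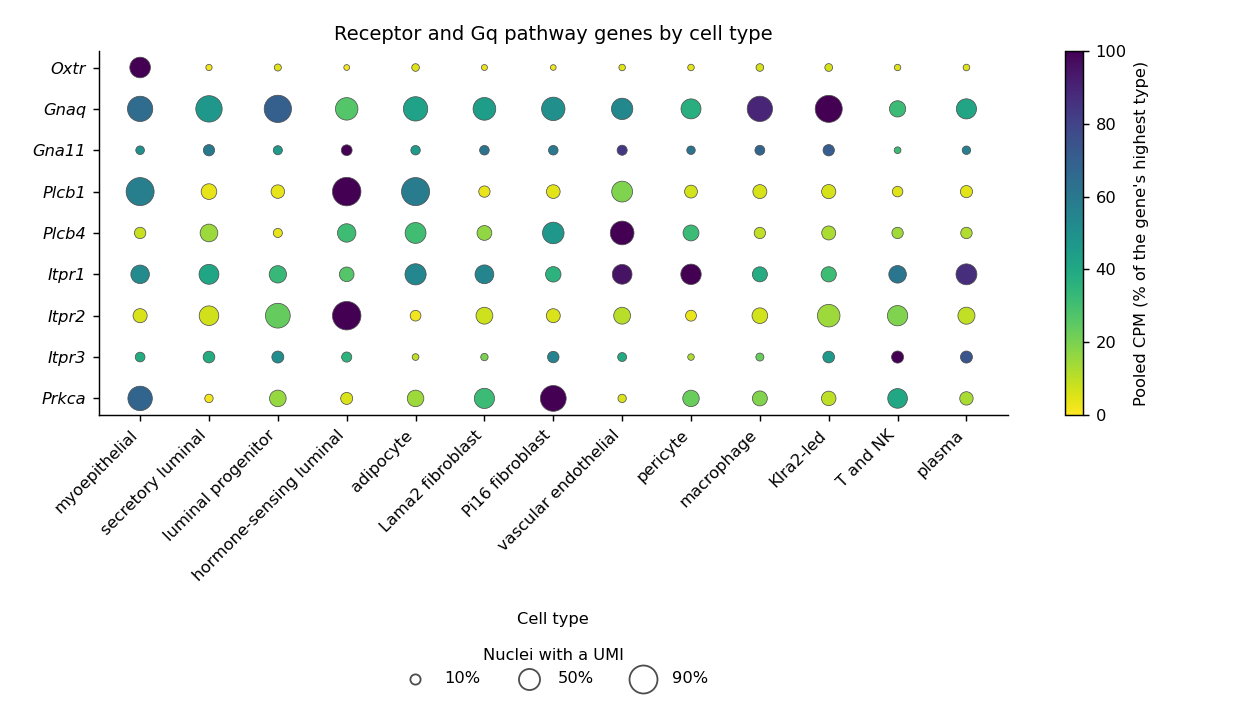
The 9 genes (rows) in 13 cell types (columns), with colour for the pooled CPM as a percent of that gene's highest type and dot size for the percent of nuclei with a UMI, not corrected for depth. Colour runs from yellow (low) to dark (the gene's highest type). Oxtr is dark in myoepithelial nuclei alone, Plcb1 is high in hormone-sensing, adipocyte and myoepithelial nuclei, and Prkca is high in Pi16 fibroblasts and myoepithelial nuclei.

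To see which nuclei held receptor and pathway together, each nucleus was thinned to 1500 UMIs and shallower ones were left out. Of 1686 myoepithelial nuclei, 33.4% (exact 95% interval 31.1 to 35.7) had an Oxtr UMI at that depth, and 192 were too shallow. The other 12 types had 0% to 3.24%, the highest being macrophages and, with 3 of 100 nuclei, T and NK cells. Adipocytes, with 0.701% (0.145 to 2.03), and secretory luminal nuclei, with 0.737% (0.587 to 0.914), lay under the share of T and NK cells. The exact 95% interval of the latter, 0.623 to 8.52, includes both values. Whether T and NK cells hold the receptor was not tested, so their share is not a measure of background. Unthinned, 47.9% of myoepithelial nuclei, 4.598% of macrophages, 4.55% of adipocytes and 2.58% of T and NK cells had an Oxtr UMI, at median depths of 2518, 2198, 4092 and 1510.

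Oxtr and Plcb1 stood in the same nucleus in 481 myoepithelial nuclei, or 28.5% (26.4 to 30.8), and in at most 1.91% of any other type. Taken alone, Oxtr was found in 33.4% and Plcb1 in 83.6% of these myoepithelial nuclei. Without thinning, both were found in 44% (41.7 to 46.3) of myoepithelial nuclei, 4.55% (2.84 to 6.86) of adipocyte nuclei and 3.38% (1.76 to 5.83) of the Klra2-led cluster. All 21 adipocyte nuclei with an Oxtr UMI also had a Plcb1 UMI, but so did 90.5% of all adipocyte nuclei (418 of 462). The downstream chain alone, with at least 1 UMI each of a G protein, a phospholipase and an Itpr gene, was not a myoepithelial feature. It was found in 29.1% (17.6 to 42.9) of hormone-sensing luminal, 21.3% (17.1 to 26.0) of endothelial, 17.3% (15.5 to 19.2) of myoepithelial and 11.4% (8.59 to 14.9) of adipocyte nuclei. The remaining types had 2% to 7.61%.

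Chain and receptor together were found in 89 myoepithelial nuclei, or 5.28% (4.26 to 6.46). Taken alone, the receptor was found in 33.4% and the chain in 17.3% of these nuclei. Whether they stood together more often than these separate shares give was not tested. Elsewhere they were found in 3 of 157 plasma cell nuclei and in 1 nucleus each of the secretory luminal, endothelial, macrophage and Lama2 fibroblast types. No adipocyte nucleus had both at this depth, in 428. The exact 95% interval allows a share of nuclei with such UMIs of up to 0.858%. With all UMIs kept, both were found in 375 myoepithelial nuclei, or 20% (18.2 to 21.8), in 14 of 462 adipocyte nuclei, or 3.03% (1.67 to 5.03), and in 12 of 355 nuclei of the Klra2-led cluster, or 3.38% (1.76 to 5.83). The other 10 types had 0% to 1.64% without thinning. A nucleus can hold a transcript and give no UMI of it, so these are shares of nuclei with a UMI and not of cells with the pathway.

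**Figure D3:**
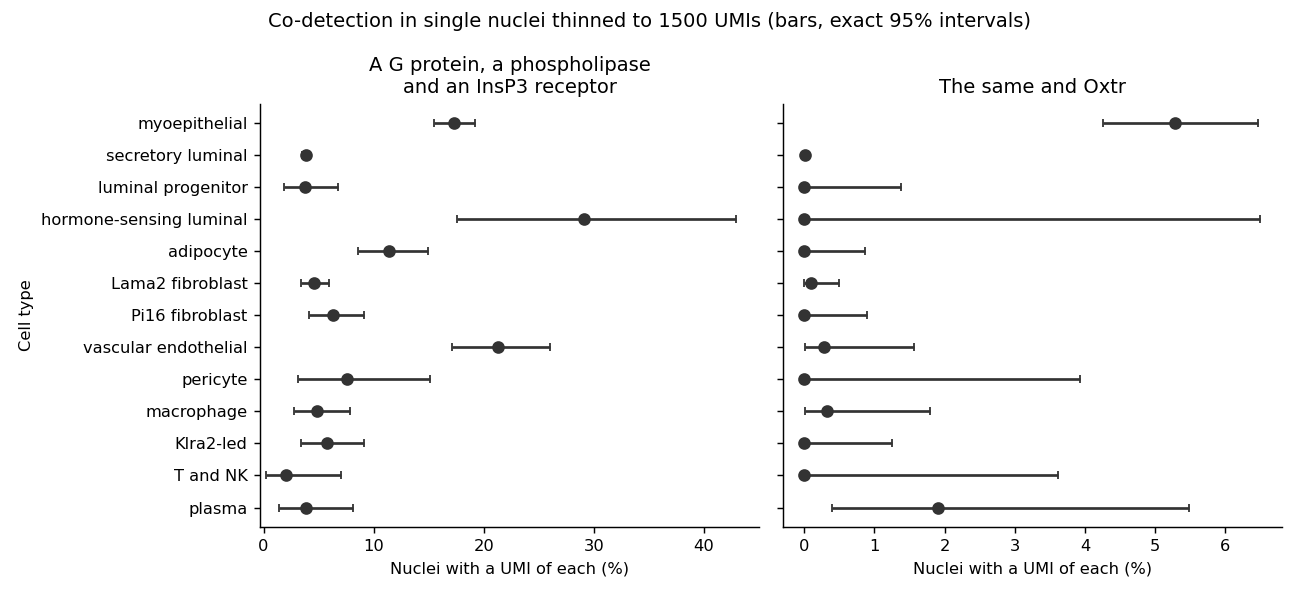
Percent of nuclei, thinned to 1500 UMIs, with the downstream chain of G protein, phospholipase and Itpr (left panel) and with that chain and Oxtr (right panel, on its own scale), for each cell type, with exact binomial 95% intervals over nuclei. The chain is present in several types, up to 29.1%, while receptor and chain together reach 5.28% in myoepithelial nuclei.

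Within myoepithelial nuclei, the pathway genes were compared between nuclei with and without an Oxtr UMI in each animal, again at 1500 UMIs. Prkca was detected in 57.5 ± 10.9% of nuclei with an Oxtr UMI and in 43.9 ± 7.002% of those without (SD, n = 8), and was higher in 8 of 8 animals (exact permutation p = 0.00781, adjusted p = 0.0625 over 8 genes). Plcb4 went the other way, with 3.35 ± 1.58% and 8.98 ± 4.12%, and was higher in 1 of 8 animals (exact permutation p = 0.0156, adjusted p = 0.0625). Plcb1 was detected in 85.6 ± 7.83% and 77.7 ± 4.26% of nuclei, and was higher in 6 of 8 animals (exact permutation p = 0.0469, adjusted p = 0.125). None of the 8 genes passed the adjusted threshold and 3 had an unadjusted p under 0.05. At 1000 UMIs and with no thinning no gene had one, and the Prkca difference was 3.21 and 6.004 percentage points, so it rests on the chosen depth.

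A finer clustering divided the myoepithelial nuclei into a cluster led by Myh11, the smooth muscle myosin gene (691 nuclei, median 2699 UMIs), and one led by Lgr5, a receptor of the Wnt pathway (1176 nuclei, median 2380 UMIs). This division was looked at after the data had been seen, and carries no test. Oxtr averaged 331.7 ± 87.1 CPM in the Myh11-led cluster and 173.1 ± 28.9 CPM in the Lgr5-led cluster (SD, n = 8), and was higher in 7 of 8 animals. Plcb1 averaged 2482 ± 319.9 and 1116 ± 172.8 CPM, higher in 8 of 8, and Itpr1 275.8 ± 71.2 and 165.5 ± 44.2 CPM, also in 8 of 8. Prkca averaged 583.9 ± 72.4 and 382 ± 77.4 CPM and was higher in 7 of 8.

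The other isoforms did not follow. Plcb4 averaged 39.2 ± 12.4 CPM in the Myh11-led and 69.6 ± 21.6 CPM in the Lgr5-led cluster, and was higher in 0 of 8 animals. Itpr2 averaged 78.2 ± 28.1 and 120.5 ± 30.8 CPM and was higher in 1 of 8. Gnaq, with 600.6 ± 87.3 and 514.7 ± 61.9 CPM, Gna11, with 20.1 ± 16.4 and 25.1 ± 9.21 CPM, and Itpr3, with 29.0 ± 14.8 and 29.7 ± 11.9 CPM, overlapped widely. The contractile gene Acta2 (smooth muscle actin), which with Myh11 was among the markers of the type, had 1949 ± 498.6 and 448.5 ± 116.8 CPM. Markers of basal cells that are not contractile genes were also higher in the Myh11-led cluster, with 83.6 ± 34.2 and 49.4 ± 12.1 CPM for the keratin gene Krt5, 61.6 ± 23.9 and 32.5 ± 13.2 CPM for Krt14, and 1094 ± 252.1 and 464.8 ± 91.9 CPM for the transcription factor gene Trp63.

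**Figure D4:**
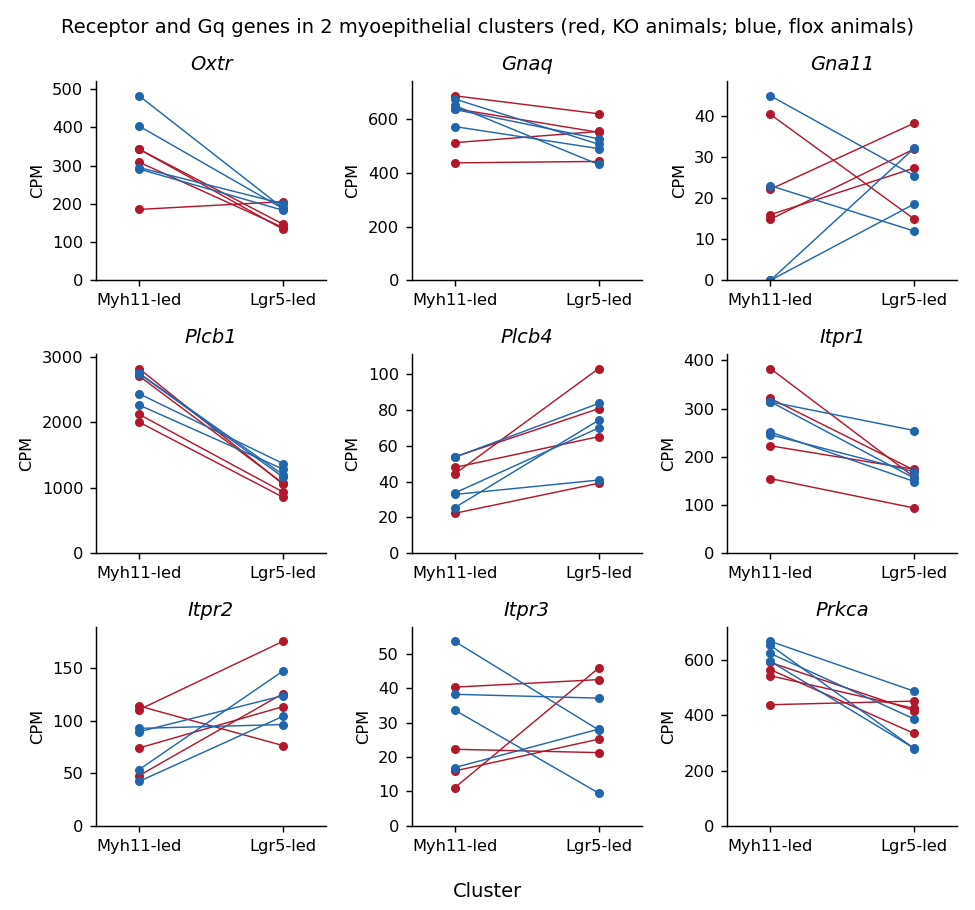
Level in CPM of each of the 9 genes in the Myh11-led and the Lgr5-led myoepithelial cluster, with a line joining the values of each animal (red, KO; blue, flox). Plcb1 and Itpr1 are higher in the Myh11-led cluster in 8 of 8 animals, Oxtr and Prkca in 7 of 8, and Plcb4 in 0 of 8.

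The genes whose pattern was most like Oxtr over the 71 sums per animal and type, in 9 types, were found by Pearson correlation of log2(CPM + 10). The sums share 1 library and differ in depth, so r is a description. Ccdc187 stood first with r = 0.90, followed by Tmem200a (0.87), Dll1, a Notch ligand (0.86), and Fhod3, which organises actin filaments of muscle (0.86). The next were Tpm2, a tropomyosin (0.85), Sez6l (0.85), Nkain3 (0.85), Gm35239 (0.85), Casq2, the calcium-binding protein of the muscle store (0.85), and Cdh3, the P-cadherin gene (0.85). All 10 had their highest mean in myoepithelial nuclei, for example 99.0 ± 16.6 CPM for Ccdc187 against 5.75 CPM in the next type. That follows from how they were chosen, by likeness to a gene highest in that type, and is not a separate result. Of the pathway genes, Plcb1 had r = 0.51, Prkca 0.41 and Gnaq 0.16, Plcb4 -0.21, and the others between -0.083 and 0.058.

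The rest of the pathway was read from lists of related genes. Only the 9 types compared across animals entered, so pericytes and hormone-sensing luminal, T and NK and plasma cell nuclei were left out. The measure was a mean of at least 20 CPM in some type, with the highest mean in myoepithelial nuclei. Of all 10262 genes at that level, 1035 (10.1%) were highest there. Of the contraction effectors it was 7 of 14, and of the genes for stores and calcium entry 4 of 9. It was 0 in every other list, namely 0 of 2 for ligand turnover, 0 of 4 for G protein and phospholipase paralogs, 0 of 8 each for protein kinase C and diacylglycerol kinases, receptor brakes, and calcineurin and NFAT, and 0 of 10 for other Gq-coupled receptors. The count for milk protein genes was 0 of 8. Some genes reached 20 CPM in myoepithelial nuclei alone, among them Myl9, Ppp1r14a and Ryr3, so they could only be counted there. The contractile genes Acta2 and Myh11 were also among the markers that named this type. The counts are therefore a description and carry no test.

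Among contraction genes, Myl9, the regulatory light chain, had 125.7 ± 24.6 CPM in myoepithelial nuclei, 12.6 times the next of these 9 types. Pericytes were not compared for any gene of this paragraph. Mylk, the kinase that phosphorylates it, had 673.6 ± 127.8 CPM, 10.6 times the next. Ppp1r14a, an inhibitor of the opposing phosphatase, had 31.4 ± 11.95 CPM (4.48 times), Ppp1r12a, that phosphatase's targeting subunit, 1080 ± 156.9 CPM (3.47 times), and Cald1, the actin-binding caldesmon, 902.8 ± 170.3 CPM (2.62 times). Of the store and entry genes, Ryr3, a calcium release channel, had 115.8 ± 41.1 CPM, 20.9 times the next type. Atp2a2, the pump that refills the store, had 266 ± 37.7 CPM (1.65 times), Cacna1c, a voltage-gated channel, 467.1 ± 78.9 CPM (1.295 times), and Stim1, the sensor of store filling, 123.2 ± 16.6 CPM (1.076 times). The step of Stim1 over the next type was smaller than its SD between animals.

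Between the genotypes, Oxtr in myoepithelial nuclei was lower in KO dams. Its levels were 177.8, 185.1, 187.5 and 199.2 CPM in the 4 KO dams, against 245, 230.4, 221.5 and 238.7 CPM in the 4 flox dams. The groups did not overlap, and the means were 187.4 ± 8.90 CPM in KO and 233.9 ± 10.2 CPM in flox (SD, n = 4 each). The difference was -46.5 CPM with an exact two-sided permutation p of 0.0286, the smallest that 4 against 4 allows. Of the 6532 genes tested in myoepithelial nuclei, 1.7% had all KO animals below all flox animals and 2.42% had them above. In edgeR's quasi-likelihood test the log2 difference was -0.33 ± 0.13 (SE, adjusted p = 0.495), so it did not pass.

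The call also depended on the hashtags. With all 10 hashtags in the calling the difference was -56.2 CPM (exact permutation p = 0.171). A ratio rule, which left only 2 KO and 2 flox dams with enough nuclei, turned it to 62.6 CPM (exact permutation p = 0.333). The levels rest on 373 Oxtr UMIs in KO dams and 442 in flox dams.

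Other measures of the myoepithelial nuclei were set beside this difference, also after the data had been seen. The share of the Myh11-led cluster was 35.9 ± 4.90% in KO and 36.1 ± 7.07% in flox dams, and milk protein genes took 11.9 ± 1.78% and 11.3 ± 0.556% of UMIs (SD, n = 4 each). Within the Lgr5-led cluster Oxtr averaged 156.2 ± 33.6 CPM in KO dams (133.8 to 205.8) and 190.1 ± 7.33 CPM in flox dams (183.3 to 200.5), and the groups overlapped. Within the Myh11-led cluster it averaged 295.2 ± 74.9 CPM in KO and 368.2 ± 92.5 CPM in flox dams, also with overlap. Summed adipocyte markers had 79.6 to 99.3 CPM in KO and 84.9 to 134.8 CPM in flox myoepithelial nuclei, with 0 of the 9 markers at 0. Macrophage markers summed to 74.4 to 244.3 CPM in KO and 62.5 to 81.8 CPM in flox myoepithelial nuclei, and Schwann cell markers to 394.7 to 456.1 and 293 to 406.7 CPM, with 0 of 10 and 0 of 6 at 0. In secretory luminal nuclei the Schwann list summed to 542.2 to 601.1 CPM in KO and 366.6 to 610.1 CPM in flox dams. It therefore did not mark a single type here. The marker lists of further types were also summed and are not given. The part of these measures in the result was not tested.

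Myoepithelial nuclei for which no hashtag was called outnumbered those with a named animal, 961 to 914, and were looked at after the data had been seen. Their Oxtr level was 276.7 CPM (255.5 to 299.2), against 210 CPM (195.8 to 224.9) in the nuclei with an animal. Plcb1 stood at 2361 and 1473 CPM and Prkca at 694 and 426.7 CPM. The median depths were 2216 and 3046 UMIs. The genotype values and the means over animals therefore come from a selected share of the myoepithelial nuclei with lower levels of these 3 genes.

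The other genes of the pathway were compared by edgeR in 9 types. The percent of all tested genes past an adjusted p of 0.05 was 0.0153 in myoepithelial nuclei (1 of 6532), 0.103 in adipocytes (4 of 3892), 0.0367 in macrophages (1 of 2722) and 0 in the other 6 types. Leaving out flox dam 4 gave 17 in myoepithelial nuclei, 57 in adipocytes, 34 in secretory luminal nuclei and 9 in Lama2 fibroblasts. Without other single dams, adipocytes had 0 (KO dam 3 or flox dam 1), 1 (KO dam 4, flox dam 2 or 3), 2 (KO dam 1) or 8 (KO dam 2), and myoepithelial nuclei 2 (KO dam 3 or flox dam 1) or 5 (KO dam 1). Macrophages had 0 without KO dam 3 or flox dam 2. Of the 57 values that the 9 genes gave, 0 passed the threshold by edgeR and 0 by DESeq2, and 4 had an unadjusted p under 0.05. Those 4 were Oxtr and Plcb1 in myoepithelial nuclei and Plcb1 in Lama2 fibroblasts and in secretory luminal nuclei.

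Plcb1 in myoepithelial nuclei was 1472, 1173, 1509 and 1227 CPM in KO dams, against 1465, 1492, 1787 and 1802 CPM in flox dams. The groups overlapped, with a log2 fold change of -0.29 ± 0.14 (SE, edgeR adjusted p = 0.619). In secretory luminal nuclei the order was the opposite, with 159.3, 272.3, 224.7 and 78.9 CPM in KO dams and 71.9, 20.8, 47.5 and 158.2 CPM in flox dams. The log2 fold change was 1.29 ± 0.52 (SE, edgeR adjusted p = 0.569), and the fourth dam of each genotype lay within the range of the other genotype. In Lama2 fibroblasts Plcb1 was 172.7, 179.2, 177.7 and 66.0 CPM in KO dams and 96.2, 41.0, 82.8 and 86.7 CPM in flox dams. The log2 fold change was 0.88 ± 0.28 (SE, edgeR adjusted p = 0.574), and the adjusted p was 0.0302 when no filter on low counts was used. KO dam 4 stood apart from the other 3 there. The differences in sign between cell types were not tested.

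The remaining genes did not pass the test in myoepithelial nuclei, and the differences of Itpr1 and Gna11 were close in size to that of Plcb1. The log2 fold change was -0.27 ± 0.18 for Itpr1, 0.29 ± 0.33 for Gna11, 0.087 ± 0.18 for Itpr2, 0.14 ± 0.30 for Itpr3, 0.085 ± 0.26 for Plcb4, 0.025 ± 0.14 for Gnaq and -0.0044 ± 0.15 for Prkca (SE, edgeR adjusted p 0.766 to 0.999). In adipocytes, where the deletion is labelled, 5 of the 9 genes passed the filter. Their log2 fold changes were -0.28 ± 0.23 for Itpr1, -0.19 ± 0.18 for Plcb1, -0.14 ± 0.19 for Gnaq, 0.19 ± 0.26 for Plcb4 and -0.16 ± 0.31 for Prkca (SE, edgeR adjusted p 0.77 to 0.924). Adipocyte Plcb1 was 1997, 1628, 1854 and 1613 CPM in KO dams, against 2269, 2289, 1981 and 1454 CPM in flox dams, with overlap.

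**Figure D5:**
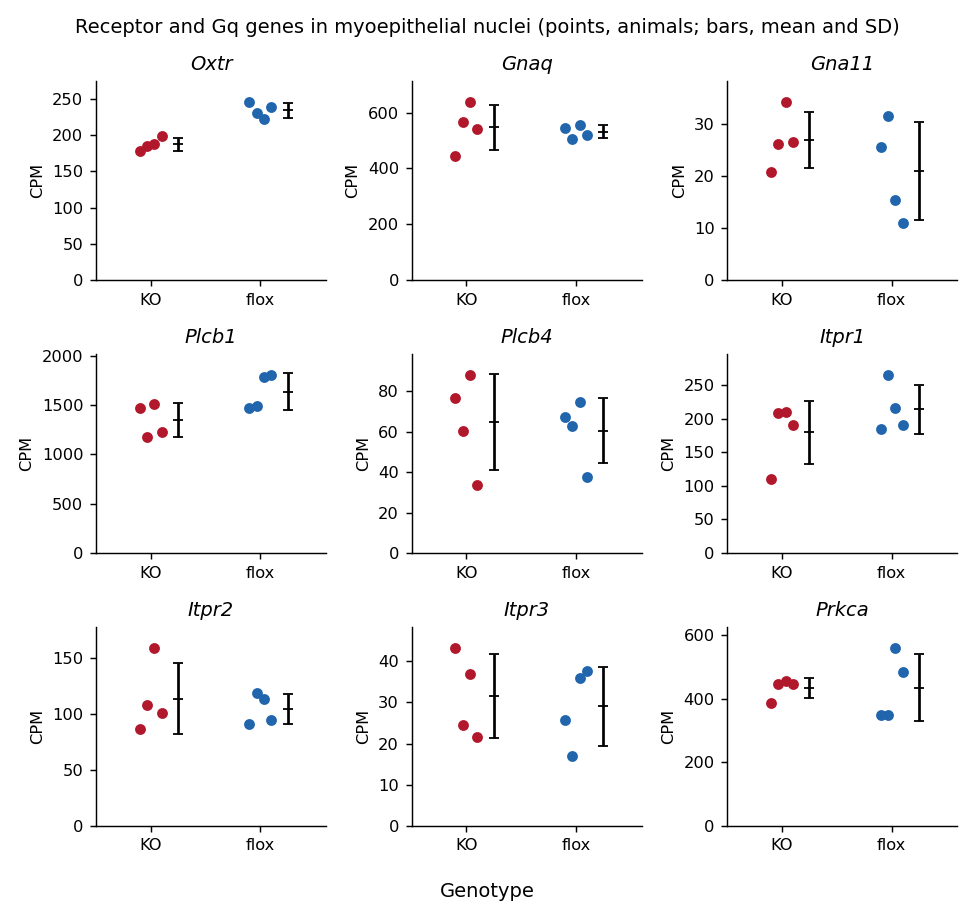
Level in CPM of the 9 genes in myoepithelial nuclei, 1 point per animal, with mean and SD bars (n = 4 each), KO dams left of flox dams. The Oxtr values do not overlap, with 177.8 to 199.2 CPM in KO and 221.5 to 245 CPM in flox, and the Plcb1 values do.

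Of the related lists, 0 genes passed in any of the 9 types by edgeR or DESeq2, and 1 passed without KO dam 2. In myoepithelial nuclei the listed genes with the smallest adjusted p were Grk5, Myl9 and Mylk. Grk5, a kinase that turns off G protein-coupled receptors, averaged 165.9 ± 27.3 CPM in KO and 225.9 ± 29.8 CPM in flox dams on the TMM-scaled CPM of the fit, a log2 fold change of -0.44 ± 0.15 (SE, edgeR adjusted p = 0.462). Myl9 averaged 115.5 ± 21.0 CPM in KO and 156.1 ± 10.8 CPM in flox, a log2 fold change of -0.43 ± 0.16 (adjusted p = 0.466 by edgeR). Mylk averaged 637.1 ± 61.9 CPM in KO and 816.3 ± 121.3 CPM in flox, a log2 fold change of -0.36 ± 0.14 (adjusted p = 0.495 by edgeR). The list medians of log2 fold change were -0.16 over 14 contraction effectors, -0.13 over 6 store and entry genes, -0.14 over 5 receptor brakes, -0.031 over 3 calcineurin and NFAT genes and -0.024 over 3 other Gq-coupled receptors. They were -0.0082 over 7 protein kinase C and diacylglycerol kinase genes, 0.16 over 2 G protein paralogs and 0.075 over 8 milk protein genes, beside 0.000682 over all 6532 genes. Of the other named genes, Dgkh, a diacylglycerol kinase, had -0.39 ± 0.18 and Ednra, an endothelin receptor, -0.50 ± 0.27, while Ryr3 had -0.32 ± 0.25 and Stim2, a sensor of store filling, 0.22 ± 0.16 (SE, edgeR adjusted p 0.611 to 0.813). Several went the other way, with 0.37 ± 0.29 for Grk2, a second receptor kinase, 0.34 ± 0.30 for Lpar1, a lysophosphatidic acid receptor, 0.32 ± 0.31 for Gna14, a Gq-class subunit, 0.22 ± 0.24 for Dgka, a diacylglycerol kinase, and 0.12 ± 0.16 for Ppp3cb, a calcineurin subunit (SE, edgeR adjusted p 0.82 to 0.913). Nfatc3, a target of calcineurin, had -0.16 ± 0.18, Lnpep, the peptidase known as oxytocinase, -0.025 ± 0.15, and Gna15, a further Gq-class subunit, 0.0068 ± 0.32 (SE, edgeR adjusted p 0.879 to 0.999). Of the milk protein genes, Lalba had -0.27 ± 0.14 and Glycam1 0.19 ± 0.17 (SE, edgeR adjusted p 0.666 and 0.843).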

How the data were processed

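The gene matrix holds UMI counts per nucleus and the hashtag library holds counts of hashtag UMIs with their reads. Both are raw counts as deposited by the authors. The submitters' processing notes name fastp, Cell Ranger 7.2.0 and GRCm39. Of 21805 barcodes, 20854 were kept (minimum 500 UMIs and 300 genes, mitochondrial share below 5%). HTODemux (Seurat 5.3.0, quantile 0.99, 9 of 10 hashtags) named 1 animal for 13005 and called 2012 doublets, which were removed. Of the hashtag UMIs, 61.4% rest on 1 read. Nuclei were clustered in scanpy 1.11.5 (2000 variable genes without the 9 genes described, 30 components, 15 neighbours, Leiden resolution 0.5) and named by hand from listed markers, on a rule of at least 3 passing a fold of 2 over the median of the other clusters and 5% of nuclei. Of the 3 secretory luminal clusters, 2 missed that rule, with 1 and 2 of 10 markers, and were kept in the class. A comparison with nuclei outside the class, under which each passed 3, was made after the names were given. Low-depth, neuronal-gene and dendritic clusters were left out.

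UMIs were summed per animal and type with at least 10 nuclei. Genotypes were compared in edgeR 4.0.16 (quasi-likelihood test, TMM, filterByExpr, Benjamini-Hochberg adjustment over all genes), with DESeq2 1.42.0 as an alternative. These scripts were tested on simulated data. Types were compared by exact sign-flip tests over animals on log2(CPM + 10). Single values between genotypes were compared by exact permutation. Poisson and Clopper-Pearson 95% intervals cover counting error only. The genes described and the lists were chosen with earlier results of these data known. Beside the 9 genes, those named were the 2 with the smallest p per list in myoepithelial nuclei, up to 5 per list that were highest there, and the 10 most correlated with Oxtr.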

Additional observations from a re-analysis of the deposited data

Results flagged for a closer look

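Among 153 groups of 4 animals, 11 had 1 animal far from the other 3 by Dixon's criterion, which chance gives in about 1 of 20 groups. Plcb1 stood apart high in the Klra2-led cluster of KO dam 2 (418.3 CPM) and in endothelial nuclei of KO dam 3 (1090 CPM), and low in Lama2 fibroblasts of KO dam 4 (66 CPM). Oxtr stood apart high in Lama2 fibroblasts of KO dam 4 (33 CPM) and in endothelial nuclei of flox dam 1 (74.17 CPM). Prkca stood apart in Lama2 fibroblasts of KO dam 1 (166.9 CPM), in adipocytes of KO dam 4 (95.13 CPM) and in myoepithelial nuclei of KO dam 1 (386 CPM), each time low. The others were Gna11 in Lama2 fibroblasts of flox dam 3 (41.4 CPM), Gnaq in adipocytes of KO dam 2 (432.1 CPM) and Itpr3 in secretory luminal nuclei of KO dam 3 (53.71 CPM), each time high. No cause was tested.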

How the results depend on the processing

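The Oxtr step between myoepithelial and endothelial nuclei was 3.64 with an adjusted p of 0.0333 (exact sign-flip test) when the 9 genes were kept in the clustering. The 9 genes could then help to place the nuclei whose levels are compared, so this p gives no support to the step. In that clustering no separate Klra2-led cluster was found, so 8 types gave 63 neighbouring pairs in place of 9 and 72. Myoepithelial and endothelial nuclei were not neighbours in that order for Oxtr, so their pair was added to the 63 for the adjustment. Unresolved type orders changed sign. Gna11 between endothelial and Klra2-led nuclei was 0.021 without milk genes and -0.13 to 0.080 with 1 animal left out. Itpr3 between Klra2-led and endothelial nuclei was -0.045 without milk genes, -0.0031 with a pseudocount of 1 and -0.29 to 0.17 with 1 animal left out. The Oxtr difference in myoepithelial nuclei was 62.6 CPM by the ratio rule and -56.2 CPM with all 10 hashtags. Differences by Oxtr UMI changed sign at 1000 UMIs for Gnaq (3.56 percentage points), Itpr1 (0.32) and Itpr3 (-0.15), and unthinned for Plcb1 (-0.39) and Itpr1 (5.69). With 1 animal left out they were -2.39 to 0.55 for Itpr2 and -0.22 to 1.54 for Itpr3.

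Genotype log2 differences in myoepithelial nuclei by the ratio rule were 0.91 for Oxtr, 0.084 for Plcb1, -0.31 for Itpr2, -0.15 for Plcb4 and 0.83 for Prkca. With all 10 hashtags they were 0.016 for Itpr1 and 0.041 for Prkca, and Prkca was 0.015 without a filter. With 1 animal left out they were -0.029 to 0.11 for Gnaq, -0.065 to 0.20 for Itpr2, -0.11 to 0.27 for Itpr3, -0.097 to 0.27 for Plcb4 and -0.090 to 0.13 for Prkca, and in adipocytes -0.076 to 0.35 for Plcb4 and -0.36 to 0.34 for Prkca. The cause of these changes was not tested.

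Genes past the threshold without a filter on low counts numbered 10 in Klra2-led, 19 in Lama2 fibroblast, 3 in Pi16 fibroblast, 94 in adipocyte, 10 in luminal progenitor, 13 in macrophage, 61 in myoepithelial and 33 in endothelial nuclei. That setting called 2 list genes and 1 of the 9 genes. DESeq2 called 1 in Lama2 fibroblasts, 10 in adipocytes, 4 in myoepithelial, 27 in secretory luminal and 1 in endothelial nuclei. All 10 hashtags gave 0 in adipocytes and 0 in macrophages, and the ratio rule 0 in myoepithelial nuclei. With 1 animal left out the counts were 0 to 9 in Lama2 fibroblasts, 0 to 57 in adipocytes, 0 to 1 in macrophages, 1 to 17 in myoepithelial, 0 to 34 in secretory luminal and 0 to 1 in endothelial nuclei, the highest of these in the first 2, in myoepithelial and in secretory luminal nuclei without flox dam 4, and 0 to 1 for list genes.

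Same-numbered animals correlated by -0.026 to 0.24, not all above 0.1, so the numbers were not taken as pairs, and 6 of 8 myoepithelial, 5 of 8 secretory luminal and 3 of 8 adipocyte sums correlated best with their own number. With the replicate block the counts were 4 in Lama2 fibroblasts, 10 in adipocytes, 5 in macrophages, 23 in myoepithelial and 1 in endothelial nuclei, and Prkca in myoepithelial nuclei was 0.017 on the log2 scale.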
